A study of Mus musculus with 8 samples.

Results

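The RNF and TRIM genes are named for a RING finger or for a tripartite motif, and many of them encode ubiquitin ligases. Groups of these genes are called ligases below by family, which does not mean that each gene is one. The protein-coding genes whose symbol is Rnf or Trim followed by a digit were taken from the deposited count table, without the muscle ligases Trim63, Trim54 and Trim55. This gave 145 of the 43346 genes listed, of which 81 were RNF and 64 TRIM genes. RNA of the heart ventricles was sequenced from 8 male C57BL/6 mice. The LLC1 group of 4 mice received 1000000 LLC1 cells, a line of mouse Lewis lung carcinoma, under the skin of the left flank at 7 weeks of age. The PBS group of 4 mice received the vehicle alone at the same age, and both groups were sampled 14 days later. The comparison asked how transcripts of the ventricle differ in mice that bear a tumor, since breakdown of tagged proteins is one way in which heart muscle can lose mass.

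Ubiquitin is attached to proteins by a relay of an activating enzyme (E1), a conjugating enzyme (E2) and a ligase (E3) that selects the target. RING ligases bring the loaded E2 to the target, whereas RING-between-RING (RBR) ligases take the ubiquitin onto their own cysteine first. Chains of ubiquitin can send a protein to the proteasome, mark a membrane or a damaged chromosome, or assemble signaling complexes of innate immunity, and several TRIM genes are themselves induced by interferon.

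Gene counts came to 15342214 to 19747596 per mouse in the LLC1 group and 12480706 to 16192158 in the PBS group. The first principal component (31.5% of the variance) separated the groups, and the second (25.2%) set the PBS mouse 1-1 apart from the rest, so that results that change without it are given both ways. Cardiomyocyte markers summed to 92519 to 99292 TMM-normalized counts per 1000000 (CPM) in LLC1 mice and 83632 to 86413 in PBS mice, and 1 of the 7 (Myh6) was called, higher. Markers of dividing cells were lower in LLC1 mice, where the 6 listed (0 of them at 0 in all mice) summed to 3.75 to 6.62 CPM against 17.2 to 49.6 CPM, and all 5 of those tested were called. Of other cell types, 3 of 6 fibroblast, 2 of 6 endothelial and 1 of 5 macrophage markers were called lower, and 2 of 3 neutrophil markers (S100a8 and S100a9) were called higher. In bulk tissue, fewer cells of a type and less RNA per cell cannot be told apart.

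Of the 145 genes, 110 passed the filter on low counts and were tested, 65 RNF and 45 TRIM genes. Of the 35 that did not, 10 had no count in any mouse and the highest count of any was 23 (Rnf43, which removes WNT receptors from the cell surface). In PBS mice the tested genes had a median level of 4.86 CPM per kilobase of transcript, compared with 4.99 for all protein-coding genes tested. Trim72, a striated muscle protein of membrane repair, had the highest level per length at 193.6 CPM per kilobase. It was followed by Rnf10, a ligase of ribosomal proteins, at 82.0, Rnf187, a coactivator of AP-1, at 60.0, Rnf7 (a RING subunit of cullin ligases) at 40.7 and Rnf13 (a ligase of endosome and lysosome membranes) at 37.2 CPM per kilobase. Trim35 at 30.1, Rnf14 at 28.4, Rnf114 at 25.1, Rnf11 at 23.7 and Rnf128, known from T cell anergy, at 19.6 CPM per kilobase completed the 10 highest. Transcripts of Rnf7 share 96.5% of 341 bases with a pseudogene transcript (Gm12362), so its level is uncertain.

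Between LLC1 and PBS mice, 7 of the 110 genes (6.36%) passed an FDR of 0.05 with edgeR's quasi-likelihood test, compared with 8.73% of all 16111 genes tested. Rnf114, Rnf166 and Rnf144b rose, and Trim59, Rnf144a, Trim7 and Trim16 fell. The 3 that rose stand against 4.12% of all genes called higher and the 4 that fell against 4.61% called lower. An FDR under 0.05 together with a change of 1.5-fold or more was reached by Trim59 and Rnf144a alone, 2 of 110, against a background of 2.87%. Trim59 passed the filter on low counts through its PBS values only, and a filter that asked for 10 or more counts in all 8 mice left 1 such gene. The LLC1 and PBS values did not overlap for 13 genes (11.8%, 6 higher and 7 lower), with 17.2% over all genes, and 26 genes (23.6%) had an unadjusted p under 0.05, with 25.5% over all genes. The share called was below that of all genes in this fit, but above it in 6 of the 17 alternatives, namely with gene length offsets (10.0% against 9.89%) and without LLC1 1-2 (5.36% against 4.59%), LLC1 1-3 (4.46% against 3.88%), LLC1 1-5 (4.50% against 4.36%), LLC1 2-2 (5.45% against 5.11%) or PBS 1-3 (4.46% against 3.32%). The median log2 fold change was -0.05, with -0.01 over all genes, and 74 of the 110 genes lay within 0.2 of 0 on the log2 scale. Of the RNF genes 3 rose and 1 fell, and of the TRIM genes 0 rose and 3 fell, a difference between the families that was not tested. For the 6 called genes whose groups did not overlap, the exact permutation test gave its smallest possible p (2-sided, 0.0286). That outcome follows from the lack of overlap and adds no separate support.

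**Figure D1:**
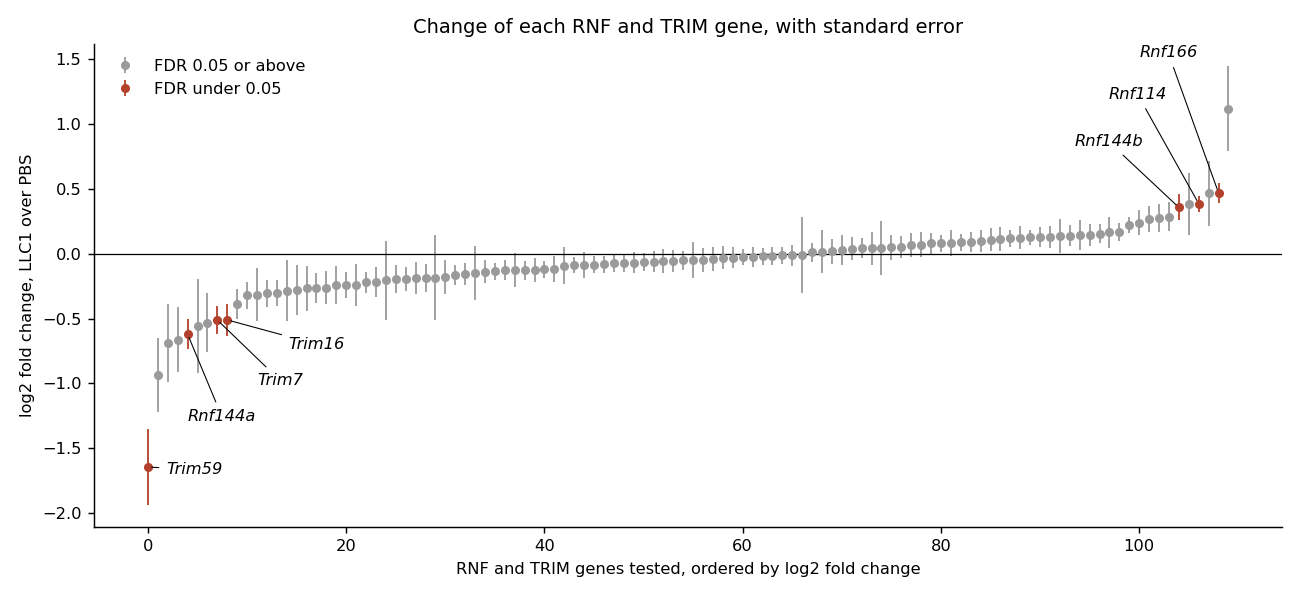
Log2 fold change (LLC1 over PBS, vertical axis) of the 110 RNF and TRIM genes tested, ordered from lowest to highest, with the standard error as bars and red for FDR under 0.05. Most points lie close to 0, and the 7 called genes lie between -1.65 (Trim59) and 0.47 (Rnf166).

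The RNF114 family holds 4 ligases with a RING finger, further zinc fingers and a ubiquitin-interacting motif, namely Rnf114, Rnf125, Rnf138 and Rnf166. Rnf114 (ENSMUSG00000006418, chromosome 2, 167492645 to 167516173 in mm10) is known as a regulator of NF-kappaB signaling. Its level was 115, 106, 110.3 and 109.6 CPM in the LLC1 mice 1-2, 1-3, 1-5 and 2-2, and 78.1, 83.0, 88.7 and 86.6 CPM in the PBS mice 1-1, 1-3, 2-1 and 2-5. All 4 LLC1 values lay above all 4 PBS values. The change was 1.31-fold, a log2 fold change of 0.39 ± 0.06 (SE, n = 4 per group, edgeR FDR = 0.00432). Spata2 shares 3.8% of the exon bases of Rnf114 on the other strand.

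Rnf166 (ENSMUSG00000014470, chromosome 8, 122466147 to 122476064), which has been linked to autophagy of bacteria, rose in the same way. Its values were 46.8, 43.5, 40.0 and 45.6 CPM in LLC1 mice, compared with 28.6, 33.7, 31.4 and 33.2 CPM in PBS mice, without overlap. The rise was 1.39-fold, with a log2 fold change of 0.47 ± 0.08 (SE, edgeR FDR = 0.00487).

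The other two genes of the family were not called. Rnf138, a ligase recruited to the ends of broken DNA, was at 4.96, 4.87, 4.54 and 4.98 CPM in LLC1 mice and 6.09, 7.01, 6.36 and 5.90 CPM in PBS mice. Here the LLC1 values all lay below the PBS values, yet its log2 fold change of -0.39 ± 0.11 (SE) missed the threshold with an edgeR FDR of 0.0542. Without the PBS mouse 1-1 its edgeR FDR was 0.0480. Rnf125, which restrains the RNA sensor RIG-I, overlapped between the groups at 1.98 to 4.16 CPM in LLC1 and 2.65 to 4.70 CPM in PBS mice (edgeR FDR = 0.479). Its transcript shares 98.5% of 537 bases with that of Gm2996.

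Within a mouse, the ratio of Rnf114 to Rnf138 was 21.7 to 24.3 in LLC1 and 11.8 to 14.7 in PBS mice. The ratio of Rnf166 to Rnf138 was 8.82 to 9.44 in LLC1 and 4.69 to 5.62 in PBS mice. By contrast, the ratio of Rnf166 to Rnf114 overlapped between the groups, at 0.363 to 0.416 and 0.353 to 0.406. These ratios rest on the same values as the fold changes and are given as a description.

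RBR ligases were 8 in number and all were tested, with Rnf144b called higher, Rnf144a called lower and a median log2 fold change of 0.02. Rnf144a and Rnf144b are paralogs with a membrane anchor, of which the first is known to act on the DNA-dependent protein kinase and the second on the cell cycle inhibitor p21. Rnf144a (ENSMUSG00000020642, chromosome 12, 26306797 to 26415256) was at 14.4, 16.5, 16.4 and 21.5 CPM in LLC1 mice and at 24.97, 25.03, 29.7 and 26.4 CPM in PBS mice. The groups did not overlap. It fell to 0.650-fold of its PBS level, a log2 fold change of -0.62 ± 0.12 (SE, edgeR FDR = 0.00947).

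Rnf144b (ENSMUSG00000038068, chromosome 13, 47122720 to 47247991) was at 33.9, 41.3, 44.9 and 40.3 CPM in LLC1 mice and 30.3, 36.0, 27.7 and 31.3 CPM in PBS mice. The lowest LLC1 mouse, 1-2, lay below the highest PBS mouse, 1-3. Its log2 fold change of 0.36 ± 0.10 (SE) was just inside the threshold (edgeR FDR = 0.0465), and the exact permutation test, 2-sided over 70 arrangements, gave p = 0.0571. The call was lost when libraries were scaled by total counts (edgeR FDR = 0.119), with the replicate code as a covariate (0.0553) and in 5 of the 8 fits without 1 mouse. The ratio of Rnf144b to Rnf144a within a mouse was 1.87 to 2.74 in LLC1 and 0.933 to 1.44 in PBS mice.

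Among the other RBR ligases, Rnf14, a ligase of stalled translation, had the highest level per length and was at 98.8 ± 3.33 and 99.9 ± 8.10 CPM (SD) in LLC1 and PBS mice (edgeR FDR = 0.916). Rnf31, the catalytic subunit of the linear ubiquitin chain assembly complex, was at 35.6 ± 2.08 and 29.5 ± 4.43 CPM and did not pass (edgeR FDR = 0.113), although it was called with the replicate code as a covariate, with gene length offsets and without PBS 2-5. Rnf19b was at 24.3 ± 2.04 and 20.5 ± 2.15 CPM (edgeR FDR = 0.134).

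**Figure D2:**
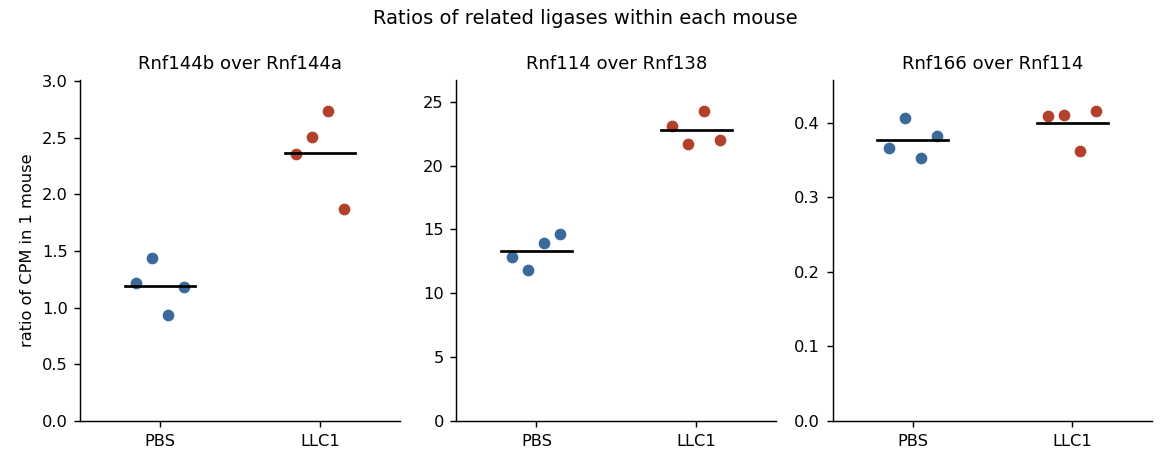
Ratio of CPM of related ligases within 1 mouse (vertical axis, from 0), 1 point per mouse with the group mean as a line. Rnf144b over Rnf144a and Rnf114 over Rnf138 separate LLC1 from PBS mice, whereas Rnf166 over Rnf114 overlaps at 0.363 to 0.416 and 0.353 to 0.406.

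The sequences 250 bases upstream of the start are shown for both RNF144 paralogs, which moved in opposite directions, and for the pair of RNF114 family genes that rose. They are from RefSeq (GRCm38.p6), for the start nearest to the 5′ end of the gene in the count table, in the direction of transcription, with GC boxes (GGGCGG on either strand) in capitals.
Rnf144a (chr12:26415263-26415512, - strand): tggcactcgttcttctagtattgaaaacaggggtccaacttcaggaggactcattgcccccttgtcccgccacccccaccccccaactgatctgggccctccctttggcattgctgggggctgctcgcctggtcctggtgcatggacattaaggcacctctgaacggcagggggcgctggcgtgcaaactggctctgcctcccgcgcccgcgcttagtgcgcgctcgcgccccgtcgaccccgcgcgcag
Rnf144b (chr13:47122470-47122719, + strand): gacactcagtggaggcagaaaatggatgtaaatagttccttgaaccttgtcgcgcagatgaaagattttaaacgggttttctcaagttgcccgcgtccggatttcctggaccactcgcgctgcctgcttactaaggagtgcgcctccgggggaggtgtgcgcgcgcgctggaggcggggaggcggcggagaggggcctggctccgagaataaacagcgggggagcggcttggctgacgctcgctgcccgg
Rnf114 (chr2:167492395-167492644, + strand): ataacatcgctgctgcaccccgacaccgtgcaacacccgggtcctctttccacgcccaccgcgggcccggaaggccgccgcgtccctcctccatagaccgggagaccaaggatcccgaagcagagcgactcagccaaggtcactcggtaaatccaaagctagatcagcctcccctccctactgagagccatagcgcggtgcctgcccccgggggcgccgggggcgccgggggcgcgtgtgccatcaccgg
Rnf166 (chr8:122476075-122476324, - strand): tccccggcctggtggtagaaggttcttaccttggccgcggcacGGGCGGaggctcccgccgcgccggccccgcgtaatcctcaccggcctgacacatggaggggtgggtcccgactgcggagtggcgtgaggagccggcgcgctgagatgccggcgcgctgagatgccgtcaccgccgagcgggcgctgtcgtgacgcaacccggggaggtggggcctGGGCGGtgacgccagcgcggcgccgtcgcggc
In the windows shown, Rnf166 held 2 GC boxes and the other 3 genes held 0. A second annotated start had 3 GC boxes in Rnf114 and 1 in Rnf144b. Over any annotated start, 35.4% of 27025 genes and 53.1% of the 113 RNF and TRIM genes with a promoter entry had a GC box in this window. Promoter entries were matched by symbol for 113 of the 145 genes. A match of letters is a description and does not show binding.

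Among the striated muscle ligases, 1 of 4 was called. Trim7 (ENSMUSG00000040350, chromosome 11, 48826140 to 48852209), which binds the glycogen primer glycogenin, was at 39.5, 44.8, 38.0 and 47.8 CPM in LLC1 mice and at 48.2, 60.3, 63.6 and 69.8 CPM in PBS mice. The groups were apart by a small gap between LLC1 2-2 and PBS 1-1. Its log2 fold change was -0.51 ± 0.11 (SE, edgeR FDR = 0.0164), and with 1 mouse left out the edgeR FDR ran from 0.00116 (without PBS 1-1) to 0.0541 (without LLC1 1-5). The call was also lost without LLC1 1-2 or PBS 1-3.

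Trim72 had the highest level per length of all 110 genes and lay just outside the threshold. It was at 612, 568, 567 and 558 CPM in LLC1 mice and 474, 501, 533 and 469 CPM in PBS mice. The groups did not overlap, with a log2 fold change of 0.22 ± 0.06 (SE, edgeR FDR = 0.0533). Over the alternatives its FDR ran from 0.00957 to 0.289, and it was called with DESeq2 and with gene length offsets. The antisense gene Gm15533 covers 27.6% of its exon bases, and the strand setting of the counts is not given in the sources used here. Myh6, the alpha myosin heavy chain of cardiomyocytes, was at 54332 CPM in LLC1 and 45869 CPM in PBS mice (edgeR FDR = 0.0209), and it makes up most of the sum of the 7 cardiomyocyte markers. Of these, 5 had a log2 fold change above 0 and 2 (Actc1 and Ryr2) below 0, and their part in the Trim72 values was not tested. The 5 skeletal muscle markers summed to 2801 to 3022 CPM in LLC1 and 2243 to 2569 CPM in PBS mice. Ckm was called higher, Acta1 was not called, and Myh1, Myh4 and Tnnt3 were too low to be tested, 1 of them at 0 in all mice. The sum therefore rests on Ckm and Acta1 and does not show a signal of the other markers. The part of these genes in the Trim72 values was not tested either. The potassium channel regulator Rnf207 was at 125 ± 9.53 and 115 ± 12.9 CPM (SD, edgeR FDR = 0.390), and Trim32, a ligase of sarcomere proteins, at 17.2 ± 0.776 and 16.0 ± 1.26 CPM (SD, edgeR FDR = 0.496).

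Trim59 was the gene with the largest fall. It encodes a membrane-anchored TRIM protein of the endoplasmic reticulum that is known from proliferating and tumor cells. Its level (ENSMUSG00000034317, chromosome 3, 69035288 to 69044755) was 0.463, 0.395, 0.328 and 0.403 CPM in LLC1 mice and 0.944, 1.75, 1.12 and 1.18 CPM in PBS mice. Every LLC1 value lay below every PBS value, although the whole gene rested on 6 to 25 counts per mouse. The log2 fold change was -1.65 ± 0.29 (SE, edgeR FDR = 0.00743). Mki67, a marker of dividing cells, was at 1.83 CPM in LLC1 and 14.4 CPM in PBS mice (edgeR FDR = 0.00177), and the part of dividing cells in the Trim59 values was not tested. The other 9 of the 10 tested ligases of the endoplasmic reticulum and other membranes were not called, and Rnf5, which has the highest level per length of that list, was at 28.7 ± 1.92 and 26.3 ± 2.46 CPM (SD).

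Trim16 (ENSMUSG00000047821, chromosome 11, 62820231 to 62850808), a TRIM protein that takes part in the clearance of damaged lysosomes, also fell. It was at 8.34, 6.65, 6.51 and 8.30 CPM in LLC1 mice and 11.8, 11.1, 10.9 and 8.91 CPM in PBS mice. The groups did not overlap, with PBS 2-5 closest to the LLC1 mice. The log2 fold change was -0.51 ± 0.13 (SE, edgeR FDR = 0.0287), and Fbxw10 shares 5.2% of its exon bases on the same strand.

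**Figure D3:**
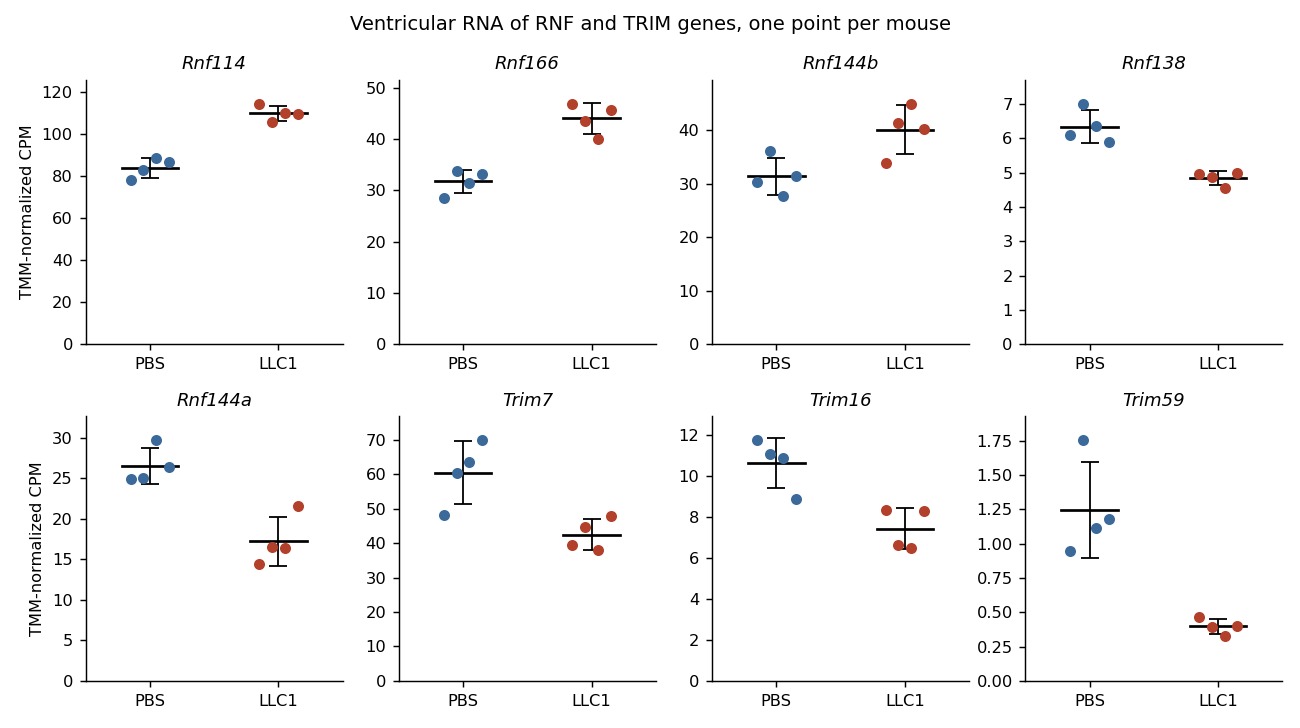
TMM-normalized CPM (vertical axis, from 0) of the 7 called genes and of Rnf138, with 1 point per mouse, the group mean as a line and the SD as bars. Rnf144b is the one whose groups overlap among the 8 panels.

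Ligases of chromatin and of DNA damage gave 0 calls of 13 tested, of which 3 were higher and 10 lower in LLC1 mice, with a median log2 fold change of -0.08. DESeq2 gave 0 calls too, and 3 had an unadjusted edgeR p under 0.05. Trim28, the corepressor of zinc finger proteins, was at 70.1 ± 2.28 and 66.0 ± 5.29 CPM (SD). Rnf20 and Rnf40, which together ubiquitinate histone H2B, were at 50.1 ± 1.21 and 53.2 ± 3.75 CPM and at 64.0 ± 3.96 and 58.4 ± 5.30 CPM. Neither pair of groups was separated.

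Trim66, a chromatin reader of the TRIM24 group, lay just outside the threshold with the highest log2 fold change of all, 1.12 ± 0.33 (SE, edgeR FDR = 0.0548). It was at 1.06, 0.790, 0.821 and 1.41 CPM in LLC1 mice and 0.686, 0.280, 0.412 and 0.531 CPM in PBS mice. These values rest on 4 to 28 counts per mouse, and the LLC1 values carried the gene through the filter. It was called without the PBS mouse 1-1 (edgeR FDR = 0.0332), with the replicate code as a covariate (0.0391) and with gene length offsets (0.0378).

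Of the remaining role groups, the 6 tested transmembrane ligases with a protease-associated domain, the 3 with NHL repeats, the 3 with a COS box and the 4 of WNT, TGF-beta and tankyrase signaling gave 0 calls with edgeR and 0 with DESeq2. An unadjusted edgeR p under 0.05 was reached by 0, 1, 1 and 0 of them. Rnf13, with the highest level per length of the first group, was at 98.6 ± 3.36 and 99.5 ± 7.50 CPM (SD). The highest level per length was in Trim3 among those with NHL repeats, at 32.5 ± 0.859 and 30.9 ± 4.37 CPM (SD, edgeR FDR = 0.688), and in Trim67 among those with a COS box, at 4.27 ± 0.999 and 3.30 ± 1.06 CPM (SD, edgeR FDR = 0.337). The COS box gene Trim36 was at 0.529, 0.790, 1.15 and 0.604 CPM in LLC1 mice and 1.03, 1.40, 1.65 and 1.77 CPM in PBS mice, with an overlap of LLC1 1-5 and PBS 1-1 (edgeR FDR = 0.0627). Its values rest on 8 to 30 counts per mouse, and the PBS values carried the gene through the filter. Rnf24, a Golgi membrane protein, was at 10.1, 8.76, 9.19 and 8.50 CPM in LLC1 mice and 10.7, 13.0, 11.4 and 10.4 CPM in PBS mice (edgeR FDR = 0.0763). The groups of Rnf24 did not overlap, and Pank2 covers 16.5% of its exon bases on the other strand.

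Ligases linked to innate immunity and interferon gave 0 calls by edgeR or DESeq2, with 3 at an unadjusted edgeR p under 0.05, and their fold changes lay to 1 side. All 16 tested had a log2 fold change below 0 (13 with gene length offsets and 15 with GC content offsets), with a median of -0.23. Without offsets, 67 of the 110 tested RNF and TRIM genes, the 16 included, and 8387 of all 16111 genes were below 0. With gene length and GC content offsets, 57 and 55 of the 110 were above 0. Rnf213, a giant ligase that coats bacteria and lipid droplets, was at 103, 108, 91.9 and 96.7 CPM in LLC1 mice and 104, 137, 110.1 and 142 CPM in PBS mice. The groups overlapped through PBS 1-1, and the log2 fold change of -0.30 ± 0.10 (SE) gave an edgeR FDR of 0.0831. Trim30a, an interferon-induced inhibitor of inflammatory signaling, was at 13.8, 12.2, 11.3 and 11.0 CPM in LLC1 and 13.4, 16.9, 14.8 and 14.5 CPM in PBS mice (edgeR FDR = 0.0887). Without the PBS mouse 1-1, both were called. Trim25, the ligase of RIG-I signaling with the highest level per length in the list, was at 48.8 ± 4.44 and 53.1 ± 6.48 CPM (SD).

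The 18 interferon-stimulated genes of the comparison list had log2 fold changes below 0 as well, with a median of -0.14 and 0 calls by edgeR, 1 by DESeq2 (Rsad2) and 2 at an unadjusted edgeR p under 0.05. Without LLC1 1-5 or without PBS 2-5, 12 of the 18 were below 0. The macrophage markers, of which Mrc1 alone was called lower, summed to 150.4 to 190 CPM in LLC1 and 157 to 231 CPM in PBS mice, and their part in these values was not tested.

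**Figure D4:**
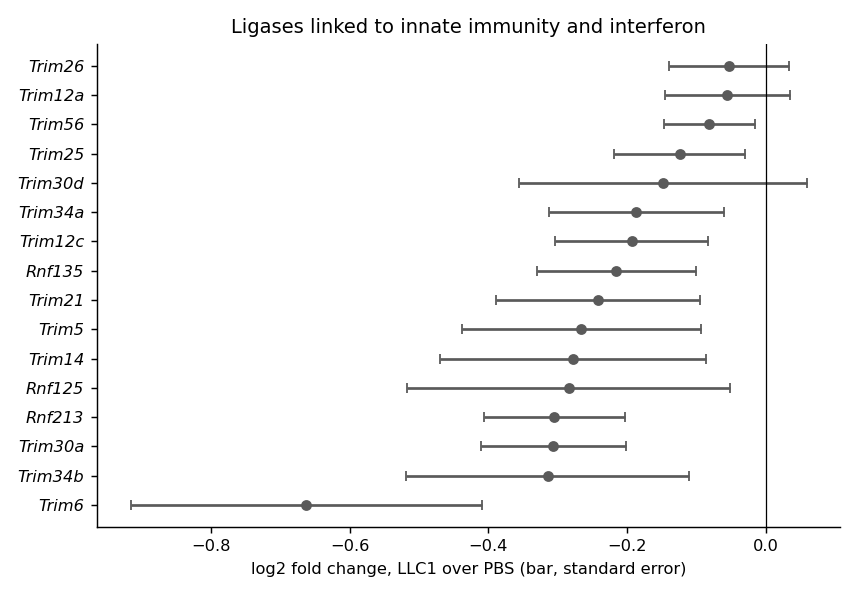
Log2 fold change (LLC1 over PBS, horizontal axis) of the 16 tested ligases linked to innate immunity and interferon, with the standard error as bars. All 16 points lie below 0 (13 did with gene length offsets and 15 with GC content offsets) and 0 have an FDR under 0.05.

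A cluster on chromosome 7 (104218793 to 104507849) holds 10 of these TRIM genes, in the order Trim6, Trim34a, Trim5, Trim12a, Trim34b, Trim12c, Trim30b, Trim30c, Trim30a and Trim30d. The 8 of them that were tested all had a log2 fold change below 0 (7 with gene length or GC content offsets or without PBS 2-5). Neither edgeR nor DESeq2 called any of them (0 of 8), and 2 had an unadjusted edgeR p under 0.05. Trim6 did not overlap between the groups, at 0.547 to 0.856 CPM in LLC1 and 0.858 to 1.33 CPM in PBS mice, on 10 to 20 counts per mouse (edgeR FDR = 0.127). Members of the cluster are near copies, with 98.7% identity of Trim34a to Trim34b over 1827 bases and 95% of Trim5 to Trim12c over 2460 bases, so their counts are not independent and may be split between them.

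Of the 18 innate ligases listed, 16 had a promoter entry (all but Trim14 and Rnf125). Within the promoter window, 5 of these, all of them tested, had the interferon-stimulated response element GAAANNGAAA on either strand. The element was in 3.46% of all genes and in 7.08% of the 113 RNF and TRIM genes with a promoter entry. The list was chosen for its link to innate immunity and interferon. For the 4 in the cluster, 40 bases around the element are shown from RefSeq (GRCm38.p6), with the element in capitals as it reads on the strand of the gene.
Trim12c (chr7:104353354-104353393, - strand): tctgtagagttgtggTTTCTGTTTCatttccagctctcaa
Trim5 (chr7:104288131-104288170, - strand): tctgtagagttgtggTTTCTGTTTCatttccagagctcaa
Trim30a (chr7:104465205-104465244, - strand): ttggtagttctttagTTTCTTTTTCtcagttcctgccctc
Trim30d (chr7:104507866-104507905, - strand): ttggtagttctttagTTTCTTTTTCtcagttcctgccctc
The element began 29 bases upstream of the start in Trim12c, 49 in Trim5, 36 in Trim30a and 41 in Trim30d. The windows of Trim30a and Trim30d read alike, and those of Trim12c and Trim5 share the same element. The fifth gene with the element was Trim26 on chromosome 17, which was at 19.3 ± 1.47 and 20.03 ± 1.49 CPM (SD, edgeR FDR = 0.741).

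Among other genes of the relay, the polyubiquitin gene Ubb was at 354 to 395 CPM in LLC1 and 221 to 342 CPM in PBS mice, without overlap, and was not called (edgeR FDR = 0.108). Of the E1 genes 0 of 2, of the E2 genes 0 of 22 and of the partners of these ligases 0 of 19 passed an FDR of 0.05 with edgeR, and 0, 2 and 3 of them had an unadjusted p under 0.05. DESeq2 called 1 of these genes, the E2 gene Ube2g2.

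In the 8 fits that each left out 1 mouse, Rnf114, Rnf166, Rnf144a and Trim59 were called in all 8, Trim7 in 5, Trim16 in 4 and Rnf144b in 3. Trim59, however, passed the filter on low counts through its PBS values only. It was not tested with the filter of at least 10 counts in every mouse. Trim16 was lost without LLC1 1-3, LLC1 1-5, PBS 1-3 or PBS 2-1, with a highest edgeR FDR of 0.0900. Rnf144b was kept without LLC1 1-2, PBS 1-1 or PBS 1-3, and its edgeR FDR reached 0.131 otherwise. Trim36, which passed the filter on low counts through its PBS values, was called without LLC1 1-5 or PBS 1-1, and Rnf31 without PBS 2-5. Without the PBS mouse 1-1 the count of called genes was 13, or 11.7% of those tested beside 11.9% of all genes in that fit, with Rnf138, Trim30a, Trim36, Trim66, Rnf213 and the lysosomal ligase Rnf152 in addition to the 7.

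**Figure D5:**
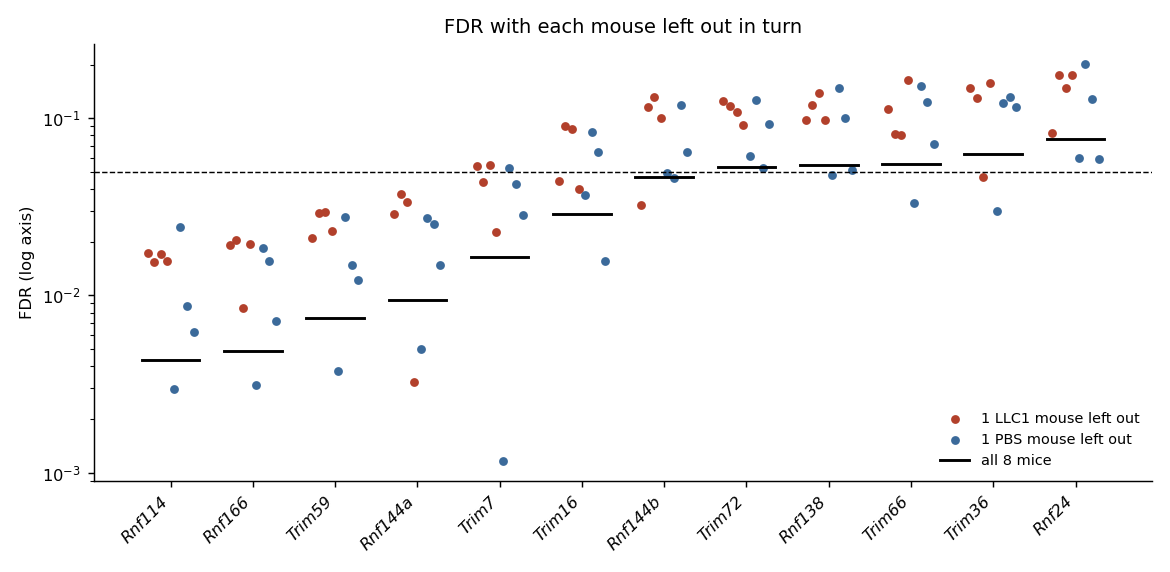
FDR (vertical log axis) of the 12 RNF and TRIM genes with the lowest FDR, with 1 point for each mouse left out and a bar for all 8 mice. The dashed line is 0.05, and all points of Rnf114, Rnf166, Trim59 and Rnf144a lie below it. Trim59 and Trim36 passed the filter on low counts through their PBS values, and Trim66 through its LLC1 values.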

How the data were processed

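Total RNA of the ventricles was made into TruSeq libraries and sequenced by the authors, who deposited 1 column of raw gene counts per mouse, not normalized, on mouse build mm10. The submitters' processing notes name CASAVA, STAR and featureCounts. Their versions, the gene annotation and the strand setting are not given in the sources used here. Without strand, reads of a gene and of an antisense partner cannot be told apart. Each mouse was assigned to LLC1 or PBS by its stated treatment. The samples carry separate codes and were taken as separate mice.

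Genes were filtered with filterByExpr, scaled with TMM factors and tested with the quasi-likelihood F-test of edgeR 4.0.16 in R 4.3.3, with Benjamini-Hochberg adjustment over all 16111 genes (FDR). A call is an FDR under 0.05. The SE of a fold change on the log2 scale is its size divided by the square root of F. Single genes were also tested by exact permutation over 70 arrangements, whose smallest possible p is 0.0286. CPM per kilobase uses the length given in the count table. Counts of 3 or fewer were taken as the floor. A gene at 1 CPM has 12 to 20 counts in a library, and counting error is included in the test.

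Alternatives were DESeq2 1.42.0, other scalings and filters, a covariate for the first digit of the code, offsets against gene length or GC content (loess span 0.3) and each mouse left out. Exon overlap and similar transcripts (BLAST 2.17.0, at least 95% identity over 150 bases) were taken from GENCODE M21, which held 145 of 145 gene IDs, 95 with the same start and end. Of these steps, only the main edgeR fit was tested on simulated data, with changes larger than those of most genes called here. The genes named were those called, the 5 next in FDR, the 10 of highest level, the RNF114 family, the RNF144 pair, and of each role list the genes called and the gene of highest level per length. Trim6, Rnf213, Trim30a, Rnf31, Rnf19b, Rnf20, Rnf40, Rnf207, Trim32, Trim26, Rnf123, Rnf152, Ubb, Ckm, Acta1, Actc1, Ryr2, Rsad2, Ube2g2, Mki67, Myh6 and Mrc1 were named after their values were seen. The genes, lists and tests were chosen with earlier results of these data known. The value of a gene on one of the lists is not reported here.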

Additional observations from a re-analysis of the deposited data

How the results depend on the processing

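No paired analysis was possible because the groups share only the code 1-3, which different animals carry. The count of called genes (7) was 6 to 8 under the alternatives, other than 11 with gene length offsets, of which 7 were higher. With the filter of at least 10 counts in every mouse, 1 gene had a change of 1.5-fold or more. The median log2 fold change (-0.05) was -0.10 with total counts, 0.00786 with gene length offsets and 0.0013 with GC content offsets, where that of all genes was -0.06, 0.02 and 0.02. With single mice left out, the count called was 5 to 13, the count higher 2 to 4, the count lower 2 to 9, the count past 1.5-fold 1 to 6 and the median -0.0703 to -0.0270. The highest counts came without PBS 1-1 (13, of which 9 lower and 6 past 1.5-fold), the lowest count lower came without PBS 1-3 (2), and 1 gene was past 1.5-fold without LLC1 1-2 or PBS 2-1. Over all genes, 663 of 1406 calls were higher, compared with 225 of 1018 with total counts and 975 of 1594 with gene length offsets. All genes called numbered 542 to 1949 with single mice left out. Of the 16 innate ligases, 13 were lower with gene length offsets and 15 with GC content offsets or without PBS 2-5. Rnf144b was lost with total counts and with the code as covariate (FDR = 0.0553 by edgeR), and its FDR ranged from 0.0171 to 0.119 under the alternatives. Of 218 values of the 13 single genes followed, 196 kept their side of the threshold, 14 lost a call, 8 gained one and 0 reversed. Outside those 13, Rnf31 gained a call in 3 alternatives, Rnf123 with gene length offsets, and Rnf152, Rnf213 and Trim30a without PBS 1-1. Genes with few counts, such as Trim59, Trim66 and Trim36, are limited by depth. The cause of these changes was not tested.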
